A study of Mus musculus with 18 samples.

Results

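Cortical endothelial cells from the side of a middle cerebral artery occlusion were compared with cells from the matching side of sham-operated mice, gene by gene. The comparison took the 3 ipsilateral MCAO libraries and the 3 ipsilateral Sham libraries, 6 of the 18 libraries of the study, chosen by their titles alone. Middle cerebral artery occlusion (MCAO) blocks the main artery to the lateral cortex and is a surgical model of ischaemic stroke. Ipsilateral is the operated hemisphere and contralateral the opposite one. All 6 libraries carried the genotype label WT and a tamoxifen label of 75 mg/kg, and cells were collected on day 7. The design text of the series names tamoxifen for the deletion mice alone, so whether sham and occluded wild-type mice received it is not certain. The mice were adult, and no exact age was given. The sort kept cells with CD31 and without CD41 or CD45, a gate that selects endothelium and removes platelets and leukocytes, and very small amounts of mRNA were amplified before sequencing of read pairs. The other 12 libraries were the contralateral sides of the same 2 conditions and occluded mice with an endothelial deletion of Hdac2 or Ezh2. The labels did not say whether the 3 libraries of a group came from separate mice, whether animals were pooled, or how far a sorted sample lay from the infarct. The p-values below therefore measure the spread between these samples, which may be technical.

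Brain endothelial cells line the vessels of the cortex and form the blood-brain barrier through tight junctions, nutrient transporters and efflux pumps, which Wnt/beta-catenin signalling maintains. Venules are where leukocytes leave the blood, and their endothelium responds to cytokines through NF-kB, STAT3 and interferon-activated factors, with secreted acute phase proteins, antigen presentation and adhesion molecules among the products. Ischaemia is also known to evoke heat shock, hypoxia and amino acid stress programmes, and sprouting of new vessels.

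In all, 13870 genes reached 10 counts in 3 or more of the 6 libraries, and 74 of them (0.534%) differed at an adjusted p-value under 0.05, 54 (0.389%) higher and 20 (0.144%) lower after occlusion. Here "rose" and "fell" are used only for these 74. The genes that rose with the smallest p-values were Scgb3a1, Lcn2, Ackr1, Lrg1, Gng10, Apod, Litaf, Ifitm1, Alad, Calr3, Tmem176a and Colec12. Those that fell with the smallest p-values included Mob3b, Lrrn3, Cttnbp2, Lmntd1, Egr3, Slc36a1, Map4k2, Insyn2a, Frmd5, Etl4 and Rhpn2. At an unadjusted p-value under 0.05, 1846 genes (13.3%) were higher and 1322 (9.53%) lower. These shares are the background for the counts of list members before adjustment given below. The 3 MCAO libraries lay wholly above the 3 Sham libraries for 2054 genes (14.8%) and wholly below for 2108 (15.2%), 30.0% in all, and all 74 genes were among them. The number of genes called depended on single libraries. It was 118 without Sham 1, 9 without Sham 2, 8 without Sham 3, 31 without MCAO 1, 23 without MCAO 2 and 838 without MCAO 3. With each library left out in turn, Scgb3a1, Lcn2, Ackr1, Lrg1, Mob3b and the predicted gene Gm10320 passed in all 6 fits, 24 of the 74 genes in 1 fit, and Serpina3f and Plpp2 in 0 fits.

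**Figure D1:**
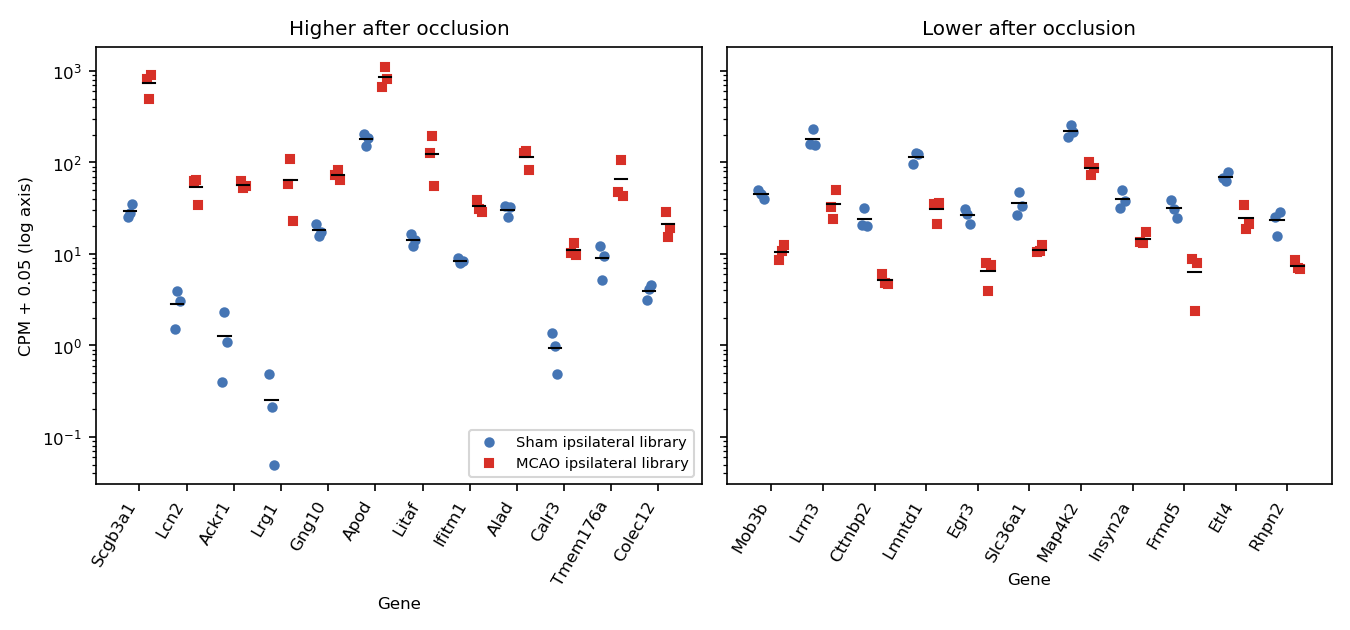
Level of the 12 higher and 11 lower genes named above, as CPM (counts divided by the TMM-scaled library total, times 1e6) plus 0.05 on a log axis; circles are Sham libraries, squares are MCAO libraries and bars are group means. No gene shown has overlapping groups, because non-overlap was part of the rule that chose them, and Lrg1 was at 0 in 1 Sham library.

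Length of the counted feature moved with the comparison across the genome. Over the 8099 genes with a mean of 10 CPM or more, the log2 fold change had a Spearman correlation of -0.581 with feature length, -0.507 with gene span and 0.305 with GC content. These are descriptions across genes of the same 6 libraries. In 10 length bins the median log2 fold change ran from 0.605 for the shortest genes to -0.586 for the longest. The genes that rose had a median feature length of 2243 bases and those that fell 6551, against 4555.5 for all genes tested. With a length trend removed from each library, a step added after the relation was seen, 24 genes passed, 23 of them among the 74. Those 23 were 17 that rose and 6 that fell, and all 74 kept their direction. The other 51 lost their call, and the fold of 20 of the 74 moved by over 1.5 times. Among the 23 were Scgb3a1, Lcn2, Ackr1, Lrg1, Apod, Litaf, Colec12, Zbp1, Fkbp5, Mob3b, Lrrn3 and Egr3.

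**Figure D2:**
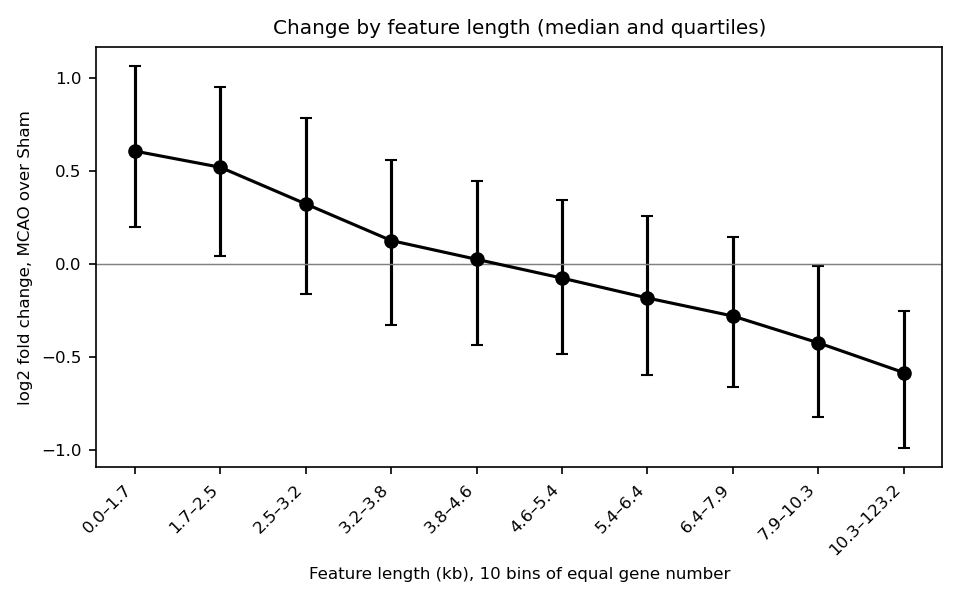
Median log2 fold change (MCAO over Sham, ipsilateral) in 10 bins of feature length in kilobases, each of 1387 genes; bars run from the lower to the upper quartile. The medians go from 0.605 in the shortest bin to -0.586 in the longest.

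The libraries were endothelial by their markers, with other cells at low levels. Total counts ran from 32563872 to 39071573 in Sham and from 40711581 to 51313194 in MCAO, and a floor of 3 counts was at most 0.0874 CPM. The 12 endothelial markers summed to 17466 ± 288 CPM (SD, n = 3) in Sham and 25621 ± 4564 CPM in MCAO, a difference carried by Ly6c1, and each was detected in all 6 libraries. The first principal component held 46.2% of the variance and placed all Sham libraries on one side and all MCAO libraries on the other. Correlations between library pairs ran down to 0.868, for Sham 2 with MCAO 2, the 2 libraries farthest apart on that component. Globin genes took from 2.44% to 7.32% of the counts without separating the groups. Olfactory and vomeronasal receptor genes, which endothelium does not use, summed to 284, 714 and 462 CPM in Sham and 241, 154 and 296 CPM in MCAO. The correlation of level with GC content across genes, relative to the mean of all 18 libraries, was 0.40, -0.31 and 0.09 in Sham. It was 0.30, 0.34 and 0.39 in MCAO, so Sham 2 differed most. All 74 genes passed with a GC trend removed from each library.

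Markers of other cells moved in part with the groups, and their part in the results was not tested. The 9 microglia markers reported here summed to 4.63, 3.14 and 6.67 CPM in Sham and to 8.98, 24.8 and 24.3 CPM in MCAO, without overlap. The defining markers Tmem119, Cx3cr1 and Siglech stayed at 0.81 CPM or less in every library, while P2ry12 reached 8.00 CPM in MCAO against at most 0.525 CPM in Sham. C1qa, C1qb and C1qc stayed at 0.2914 CPM or less in Sham and reached 2.73, 5.29 and 3.13 CPM in MCAO. In MCAO 1, C1qb and C1qc were at 0. Macrophage markers summed to 10.1, 9.53 and 19.6 CPM in Sham and to 17.5, 43.5 and 104 CPM in MCAO, with Spp1, which microglia also make after injury, at 0.0492, 26.8 and 64.3 CPM in MCAO. Pericyte markers summed to 109, 101 and 125 CPM against 75.1, 27.0 and 80.5 CPM, and smooth muscle markers to 130, 62.4 and 127 CPM against 95.3, 26.9 and 42.6 CPM. Choroid plexus markers were at 297 CPM in MCAO 1, almost all of it Ttr, and at 0.281 and 59.7 CPM in MCAO 2 and 3. In such bulk libraries, fewer cells of a type and less RNA per cell cannot be told apart, for these markers and for venous or arterial genes alike.

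Scgb3a1, a small secreted protein of the secretoglobin family, had the smallest p-value. The gene lies at chr11:49663610-49665118 on the plus strand of GRCm38. It stood at 25.3, 28.3 and 35.3 CPM in the Sham libraries and at 817, 497 and 906 CPM in the MCAO libraries, a log2 fold change of 4.64 ± 0.33 (SE, 3 against 3 libraries, adjusted p = 0.000109). The lowest MCAO library was far above the highest Sham library. With the length trend removed the log2 fold change was 4.01.

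Promoter sequences were taken from RefSeq (GRCm38.p6), which matched 44 of the 54 genes that rose (59 promoters) and 13 of the 20 that fell (15 promoters). The 250 bases before the transcription start are shown for 5 genes that stand for the groups described below, read 5′ to 3′ on the gene's own strand. Capitals mark every match to the motif searched on either strand, and a match is a description of the letters only. The motifs were a STAT site TTCCNGGAA (1.15% of all 32851 promoters, each of 300 bases), an NF-kB site of GGG and TTTCC with any 2 bases between (1.63%), an interferon-stimulated element of GAAA and GAAA with any 2 bases between (3.44%), a heat shock element GAANNTTC (7.86%), an AP-1 site TGANTCA (7.81%), a cyclic AMP element TGACGTCA (1.79%) and a GC box GGGGCGGGG (11.45%). Each motif was searched on its own, so matches of different motifs may overlap. Scgb3a1 (chr11:49663345-49663594, plus) held a STAT site. B2m (chr2:122147437-122147686, plus) held an interferon-stimulated element and an NF-kB site 3 bases apart. Ifit3 (chr19:34583279-34583528, plus) held a pair of interferon-stimulated elements and an AP-1 site. Hspa1b (chr17:34959239-34959488, minus) held a heat shock element, and Ch25h (chr19:34475149-34475398, minus) a cyclic AMP element. Among the promoters of genes that rose, the NF-kB site was in 4 of 59 (6.78%), the interferon-stimulated element in 3 (5.08%), the heat shock element in 4 (6.78%), the AP-1 site in 7 (11.86%) and the STAT site in 1 (1.69%). The cyclic AMP element was in 2 (3.39%) and the GC box in 13 (22.03%). Of the 15 promoters of genes that fell, 5 (33.33%) held the GC box and 0 held any of the other 6 motifs. Among the 13783 promoters of tested genes the GC box was in 20.05%, the heat shock element in 5.99%, the AP-1 site in 5.54%, the interferon-stimulated element in 3.26%, the cyclic AMP element in 2.88%, the NF-kB site in 1.58% and the STAT site in 1.3%. No test was made on these shares.
Scgb3a1: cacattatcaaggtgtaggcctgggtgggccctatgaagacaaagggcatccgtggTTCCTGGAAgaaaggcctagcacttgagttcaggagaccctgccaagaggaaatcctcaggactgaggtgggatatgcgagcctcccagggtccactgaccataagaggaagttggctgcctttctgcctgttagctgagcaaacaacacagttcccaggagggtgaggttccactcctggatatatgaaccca
B2m: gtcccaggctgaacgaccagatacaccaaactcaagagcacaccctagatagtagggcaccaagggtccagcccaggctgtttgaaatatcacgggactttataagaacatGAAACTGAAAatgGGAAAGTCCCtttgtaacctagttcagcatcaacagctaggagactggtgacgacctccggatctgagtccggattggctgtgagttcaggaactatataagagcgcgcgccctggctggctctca
Ifit3: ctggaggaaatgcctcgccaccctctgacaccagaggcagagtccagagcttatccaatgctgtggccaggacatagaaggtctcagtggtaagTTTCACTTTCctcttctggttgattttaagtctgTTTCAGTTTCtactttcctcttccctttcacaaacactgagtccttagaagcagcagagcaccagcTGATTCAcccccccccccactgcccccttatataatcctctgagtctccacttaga
Hspa1b: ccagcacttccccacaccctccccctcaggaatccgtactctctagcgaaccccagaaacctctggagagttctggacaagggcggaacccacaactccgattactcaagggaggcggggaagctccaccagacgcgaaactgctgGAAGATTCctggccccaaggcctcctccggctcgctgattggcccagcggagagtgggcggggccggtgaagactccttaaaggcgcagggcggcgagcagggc
Ch25h: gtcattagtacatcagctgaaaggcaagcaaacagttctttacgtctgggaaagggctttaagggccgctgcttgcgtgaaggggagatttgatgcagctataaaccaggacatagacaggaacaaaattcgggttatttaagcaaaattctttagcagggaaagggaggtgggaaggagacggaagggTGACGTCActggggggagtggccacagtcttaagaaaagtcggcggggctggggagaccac

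Lcn2, a lipocalin that binds iron-loaded siderophores, stood at 1.46, 3.86 and 3.03 CPM in Sham and at 62.8, 64.9 and 33.8 CPM in MCAO (log2 fold change 4.28 ± 0.42, adjusted p = 0.00129). Ackr1, the atypical chemokine receptor of venules, which binds and transports chemokines, went from 0.353, 2.29 and 1.05 CPM to 62.7, 52.2 and 55.2 CPM (5.54 ± 0.54, adjusted p = 0.00129). Lrg1, a secreted glycoprotein that acts on TGF-beta signalling in vessels, was close to undetected in Sham, with raw counts of 20, 6 and 0, and had 2378, 4702 and 898 counts in MCAO. For none of these 3 genes did the groups overlap, which held for all 74 genes and for 30.0% of all genes tested. Serpina3f, a serine protease inhibitor, had counts of 5, 0 and 6 in Sham and of 214, 270 and 64 in MCAO (adjusted p = 0.0492). Fold changes of Lrg1 and Serpina3f rest on near-zero Sham counts and are not read further.

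Of the 14 tested genes of the acute phase and innate response list, 7 were higher at an unadjusted p-value under 0.05, 0 were lower, and 2 passed the adjusted test (Lcn2 and Lrg1). The list's median log2 fold change was 1.57, beside -0.02 over all genes tested, and 1.44 with the length trend removed. The complement genes C4b (3.81 ± 1.07, adjusted p = 0.0856) and Cfb (2.80) and the lipopolysaccharide coreceptor Cd14 (2.44 ± 0.58, adjusted p = 0.0614) had positive values that did not pass. C4b stood at 4.30, 9.36 and 35.2 CPM in MCAO, in the order of the macrophage marker sums. Saa3, Saa1, Saa2, Hp and Il6 had too few counts to be tested. In the venous list, 3 of 19 genes rose, namely Ackr1, Lcn2 and Lrg1, beside 0.389% of all genes tested. Lcn2 and Lrg1 are the same 2 genes that passed in the acute phase list. Before adjustment 6 venous genes were higher and 2 lower, beside 13.3% and 9.53% of all genes tested. The venous identity factor Nr2f2 (-1.21) and its partner in the list Nrp2 (-1.07 ± 0.30, adjusted p = 0.084), a semaphorin and VEGF coreceptor, had negative values that did not pass. Of the 20 arterial genes 0 passed in edgeR, with 3 higher and 5 lower before adjustment, and DESeq2 called 2 higher and 2 lower. The venous median went from 0.41 to 0.67 and the arterial one from -0.27 to -0.18 with the length trend removed.

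Apart from Ackr1, no leukocyte adhesion molecule tested passed the adjusted edgeR test, 1 was higher and 1 lower before adjustment. Vcam1, which binds integrins of leukocytes, stood at 98.1, 89.2 and 59.4 CPM in Sham and at 120, 108 and 101 CPM in MCAO. Its log2 fold change was 0.42 ± 0.26 (adjusted p = 0.34), and 0.81 ± 0.25 with the length trend removed (adjusted p = 0.15). Icam1, another integrin ligand, had 0.30 ± 0.29 (adjusted p = 0.56), with the MCAO libraries at 27.3, 15.8 and 28.6 CPM around the Sham values of 21.5, 17.8 and 19.0. The selectins Sele and Selp stayed at 2.12 CPM or less in every library. Icam2, a ligand of leukocyte integrins that resting endothelium also carries, was the higher one (1.17 ± 0.36, adjusted p = 0.10) and Alcam the lower one (-0.82 ± 0.35, adjusted p = 0.20). Of 13 chemokine ligands 0 passed in edgeR, although 5 were higher before adjustment and DESeq2 called 3. Among the 5 was Cxcl10, which attracts activated T cells, at 10.6, 5.89 and 20.8 CPM against 3.88, 4.79 and 2.33 (1.76 ± 0.50, adjusted p = 0.087). The chemokine median was 1.70, and 1.32 with the length trend removed, and the adhesion median 0.29 and 0.26.

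Interferon-induced genes were mostly higher. Of 28 tested, 18 were higher and 1 lower at an unadjusted p-value under 0.05, 4 passed the adjusted test and the median was 0.74. With the length trend removed, 14 were higher, 1 was lower, 0 passed and the median was 0.62. Ifit3, an antiviral effector, stood at 137, 103 and 118 CPM in Sham and at 388, 459 and 292 CPM in MCAO (log2 fold change 1.67 ± 0.26, adjusted p = 0.0216). Its near-copy Ifit3b rose as well (1.99 ± 0.31, adjusted p = 0.0201), and reads of the pair may be shared by the counting. Ifitm1, which restricts virus entry at membranes, went from 9.07, 7.82 and 8.28 CPM to 38.9, 31.3 and 28.7 CPM (1.97 ± 0.27, adjusted p = 0.0108). Ly6e, a lipid-anchored interferon target, rose from 2570, 2339 and 1789 CPM to 6601, 8403 and 5207 CPM (1.59 ± 0.31, adjusted p = 0.0476). Outside the list, 2 further genes known as interferon targets rose, chosen after their values were seen: Zbp1, a sensor of nucleic acids (2.46 ± 0.38, adjusted p = 0.0183), and Isg20, an exonuclease (1.54 ± 0.29, adjusted p = 0.047). Zbp1 passed with the length trend removed and Isg20 did not (adjusted p = 0.10). The signal transducer Stat2 (-0.11) and the guanylate-binding protein genes Gbp2 (0.18), Gbp3 (-0.21) and Gbp4 (-0.08) had values near 0, and Rsad2, an antiviral enzyme, was the member lower before adjustment (-0.67).

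Genes of antigen presentation by MHC class I were also mostly higher. Of 17 tested, 12 were higher and 0 lower before adjustment, 2 passed, and the median was 1.06. With the length trend removed, 9 were higher, 0 lower and 0 passed, and the median was 0.92. B2m, the light chain of every class I molecule, stood at 5146, 4433 and 5363 CPM in Sham and at 12414, 13706 and 23090 CPM in MCAO (1.72 ± 0.34, adjusted p = 0.0487). H2-Q7, a nonclassical class I heavy chain, stood at 10.9, 3.83 and 5.04 CPM against 18.5, 54.7 and 217 CPM (3.87 ± 0.75, adjusted p = 0.0476). The MCAO libraries of H2-Q7 differed widely, and reads of the H2-Q family are hard to assign to single copies. Both genes stood highest in MCAO 3, without which the log2 fold changes were 1.38 for B2m and 2.47 for H2-Q7. Both still passed in that fit. Of the 6 fits that leave out a library, it was the only 1 in which B2m passed, while H2-Q7 passed in 3. The macrophage markers also summed highest in MCAO 3, at 104 CPM, and their part in these values was not tested. The classical heavy chain H2-D1 (1.55 ± 0.32, adjusted p = 0.0529) and the immunoproteasome subunits Psmb8 (1.61 ± 0.37, adjusted p = 0.0608) and Psmb9 (1.55) did not pass.

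Heat shock chaperones were higher in 2 of the 3 MCAO libraries. Of 19 tested, 13 were higher and 0 lower before adjustment, 3 passed and the median was 1.41. With the length trend removed, 14 were higher, 1 lower and 0 passed, and the median was 1.10. Hspa1b, an inducible HSP70 that refolds proteins, stood at 14.5, 16.6 and 20.9 CPM in Sham and at 167, 212 and 38.4 CPM in MCAO (3.01 ± 0.50, adjusted p = 0.0268). Its near-identical neighbour Hspa1a gave 2.38 ± 0.43 (adjusted p = 0.043), and the 2 genes may share reads. Dnajb1, an HSP40 co-chaperone, rose by 1.52 ± 0.28 (adjusted p = 0.0443). MCAO 3 was the lowest MCAO library for all 3 genes. The constitutive chaperone Hspa8 stood at 3087, 3757 and 929 CPM in MCAO against 721, 785 and 779 CPM in Sham (1.77 ± 0.43, adjusted p = 0.0637). The median level of the list, on the log2(CPM + 1) scale and relative to the Sham mean, was 1.53 in MCAO 1, 1.89 in MCAO 2 and 0.14 in MCAO 3, and from -0.13 to 0.14 in Sham. Hspa1b, Hspa1a and Dnajb1 each passed in 1 of the 6 fits that leave out a library, the one without MCAO 3.

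**Figure D3:**
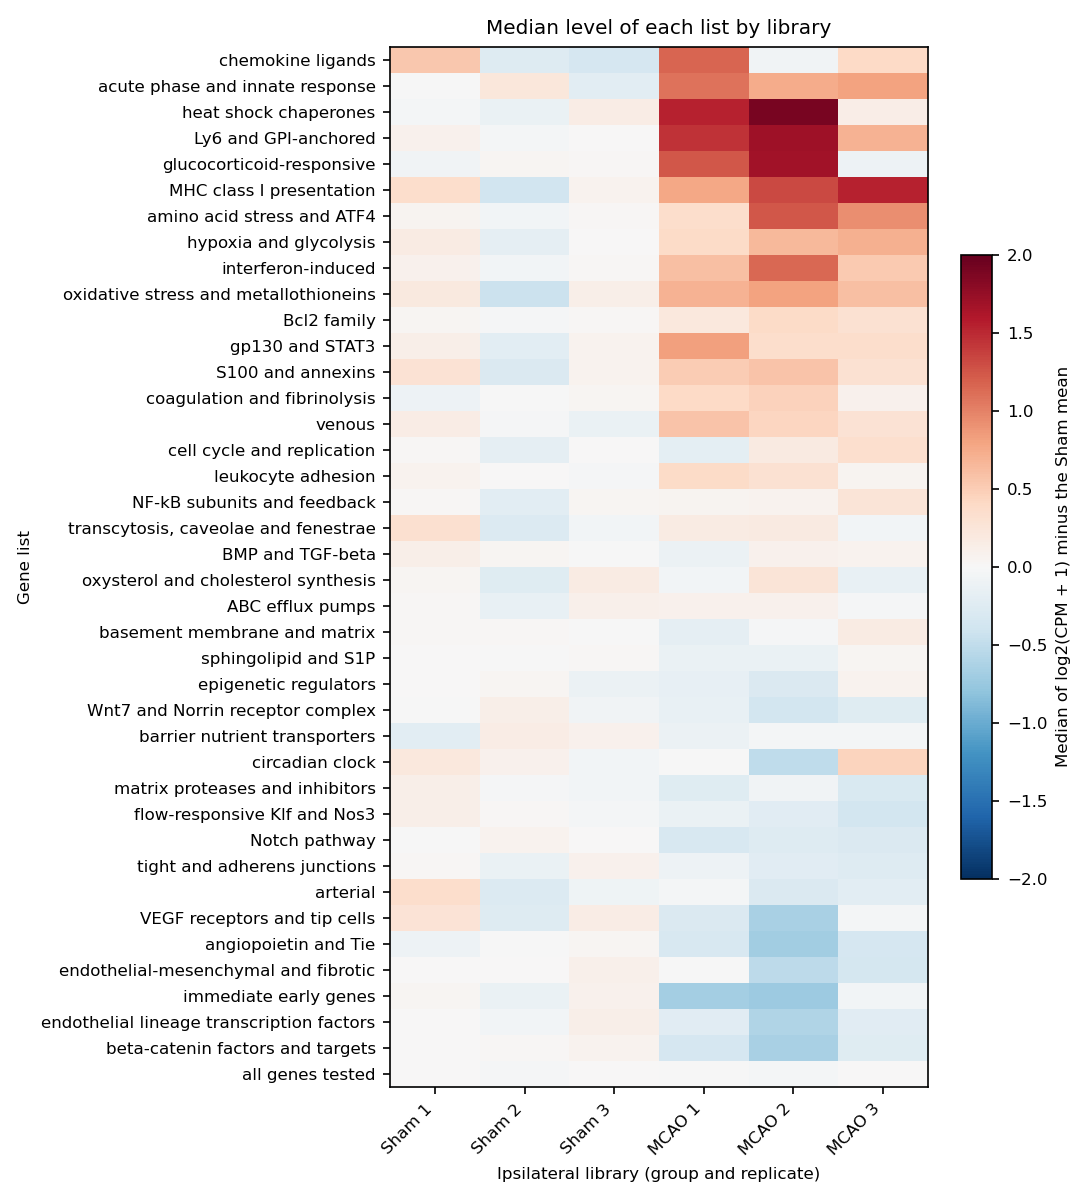
Median level of each gene list in each ipsilateral library, as log2(CPM + 1) minus the Sham mean of the same gene; red is above and blue below. Heat shock and glucocorticoid-responsive genes are high in MCAO 1 and MCAO 2 and near the Sham level in MCAO 3, whereas MHC class I genes are highest in MCAO 3.

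Genes of cytokine signalling, oxysterol synthesis and metal handling were among those that rose. Ch25h, which makes 25-hydroxycholesterol, stood at 13.6, 5.45 and 10.5 CPM in Sham and at 127, 72.6 and 35.3 CPM in MCAO (2.99 ± 0.47, adjusted p = 0.0197). Bcl3, an atypical member of the IkB family, went from 3.18, 2.78 and 3.38 CPM to 20.8, 18.5 and 7.27 CPM (2.32 ± 0.44, adjusted p = 0.0476), and Pim3, a survival kinase, gave 1.72 ± 0.33 (adjusted p = 0.0476). Groups did not overlap for these 3 genes, as for all 74. The feedback inhibitor Socs3 (1.23 ± 0.31, adjusted p = 0.071) and Cebpd, a transcription factor of acute inflammation (1.63 ± 0.34, adjusted p = 0.052), did not pass. In the gp130 and STAT3 list 7 of 18 genes were higher and 1 lower before adjustment (2 passed, 1 of them Ch25h, median 0.51). Ch25h was also the 1 gene that passed in the oxysterol and cholesterol synthesis list. In the NF-kB list 4 of 19 were higher and 2 lower (1 passed, median 0.20), and Tnfaip3, which limits NF-kB activation, had -0.94 ± 0.33 (adjusted p = 0.13). These medians were 0.45 and 0.10 with the length trend removed, when Ch25h (adjusted p = 0.054), Bcl3 (0.086) and Pim3 (0.092) did not pass.

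Mt2, a metallothionein that binds zinc and copper, rose from 145, 81.0 and 153 CPM to 399, 503 and 412 CPM (1.80 ± 0.29, adjusted p = 0.0249). Fth1, the ferritin heavy chain that stores iron, rose from 1729, 670 and 1063 CPM to 3973, 4896 and 5388 CPM (2.04 ± 0.36, adjusted p = 0.0412). A ferritin light chain pseudogene, Ftl1-ps1, also passed (1.62 ± 0.31, adjusted p = 0.0476), and its reads may come from Ftl1 itself, which did not pass (1.49 ± 0.33, adjusted p = 0.059). In the oxidative stress and metallothionein list 13 of 23 genes were higher and 0 lower before adjustment (median 0.64, and 0.58 with the length trend removed). Mt2 (adjusted p = 0.065), Fth1 (0.052) and Ftl1-ps1 did not pass with the length trend removed. Alad, an enzyme of haem synthesis, rose by 1.92 ± 0.27 (adjusted p = 0.013). Fkbp5, a chaperone partner of steroid receptors and a classical glucocorticoid target, stood at 3.49, 3.80 and 2.27 CPM in Sham and at 32.3, 23 and 7.62 CPM in MCAO (2.72 ± 0.49, adjusted p = 0.043). In the glucocorticoid-responsive list 11 of 17 genes were higher and 1 lower, and 3 passed (Fkbp5, Mt2 and Lcn2). Its median was 1.26, and 0.80 with the length trend removed, when 2 passed. The list's level relative to the Sham mean was 1.24 in MCAO 1, 1.67 in MCAO 2 and -0.10 in MCAO 3.

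No gene of the hypoxia and glycolysis list or of the amino acid stress and ATF4 list passed the adjusted edgeR test, although many were higher before adjustment. DESeq2 called 10 higher in the first list and 8 in the second, and limma-voom 0 in each. Of 31 tested hypoxia and glycolysis genes, 15 were higher and 0 lower (median 0.81, and 0.55 with the length trend removed). The glycolytic enzymes Tpi1 (1.58 ± 0.33, adjusted p = 0.052), Ldha (1.40 ± 0.34, adjusted p = 0.066) and Pgk1 (0.92 ± 0.24, adjusted p = 0.078) and the barrier glucose transporter Slc2a1 (0.97 ± 0.31, adjusted p = 0.11) did not pass, nor did the growth factor Vegfa (1.48 ± 0.64, adjusted p = 0.198). Of 19 ATF4 genes, 10 were higher and 0 lower (median 1.04, and 0.77 with the length trend removed), led by the stress factors Ddit3 (1.44 ± 0.29, adjusted p = 0.0503) and Trib3 (2.02 ± 0.50, adjusted p = 0.068). Outside both lists, Angptl4, a secreted inhibitor of lipoprotein lipase (1.97 ± 0.35, adjusted p = 0.0412), and P4ha1, a collagen prolyl hydroxylase (1.97 ± 0.38, adjusted p = 0.0476), rose. So did Plin2, a coat protein of lipid droplets that was chosen after its value was seen (1.59 ± 0.30, adjusted p = 0.046). Angptl4, P4ha1 and Plin2 did not pass with the length trend removed.

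Apod, a secreted lipocalin that carries small lipids, went from 206, 152 and 185 CPM to 672, 1108 and 825 CPM (2.26 ± 0.29, adjusted p = 0.00676). Plaur, the urokinase receptor, went from 11.8, 6.31 and 7.17 CPM to 60.5, 87.5 and 17.7 CPM (2.71 ± 0.49, adjusted p = 0.043). Cd59b, an inhibitor of the terminal complement complex, went from 20.1, 23 and 24.5 CPM to 72.1, 172 and 55.3 CPM (2.15 ± 0.39, adjusted p = 0.0416). In none of the 3 did the groups overlap, as in all 74 genes. In the list of Ly6 and other GPI-anchored proteins 9 of 13 genes were higher and 0 lower before adjustment, 3 passed, and the median was 1.37, which was 0.71 with the length trend removed. Tnfrsf12a, the receptor of the cytokine TWEAK, rose by 2.40 ± 0.45 (adjusted p = 0.046), and Colec12, a scavenger receptor of the collectin family, by 2.43 ± 0.36 (adjusted p = 0.0154). Plaur, Cd59b and Tnfrsf12a did not pass with the length trend removed. Tmem176a (2.86 ± 0.42, adjusted p = 0.0143) and Tmem176b (1.90 ± 0.31, adjusted p = 0.0249) overlap each other on opposite strands, and the strand setting of the counting was not given in the sources used here.

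The remaining genes that rose were of mixed function. Litaf, a membrane protein of late endosomes, stood at 16.6, 12.1 and 14.3 CPM in Sham and at 125, 193 and 55.2 CPM in MCAO (3.12 ± 0.40, adjusted p = 0.00714). Gng10, a G protein gamma subunit, stood at 21.4, 15.9 and 17.4 CPM against 72.1, 83.4 and 64.7 CPM (2.01 ± 0.25, adjusted p = 0.00676), values it shares with the overlapping model Gm20503. Calr3, a relative of the chaperone calreticulin, gave 3.60 ± 0.52 (adjusted p = 0.0143). Pmaip1, a death-promoting BH3-only protein also known as Noxa, gave 2.01 ± 0.31 (adjusted p = 0.0183), and Hmga1, an architectural chromatin protein, gave 2.96 ± 0.55 (adjusted p = 0.0466). Both nucleoside phosphorylases Upp1 (3.02 ± 0.59, adjusted p = 0.0487) and Pnp2 (1.94 ± 0.34, adjusted p = 0.0349) rose. Plpp2, a lipid phosphate phosphatase, had 0 counts in all 3 Sham libraries and 34, 40 and 142 counts in MCAO (adjusted p = 0.0487). Its MCAO mean, raised by MCAO 3, was at least 22.7-fold above a floor of 3 counts per Sham library. Plpp2 passed in 0 of the 6 fits that left out a library. MCAO levels were 0.836, 0.936 and 3.58 CPM, while the contralateral Sham libraries were at 1.72, 1.78 and 0.382 CPM, so its fold change is not read further. Hmga1, Upp1 and Pnp2 were chosen after their values were seen. Like Pmaip1 and Plpp2, they did not pass with the length trend removed.

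Further genes that rose, chosen after their values were seen, had a log2 fold change between 1.25 and 2.28. Capg, which caps actin filaments, gave 2.28 ± 0.43 (adjusted p = 0.0476), and Ercc1, part of a nuclease of DNA repair, gave 2.17 ± 0.33 (adjusted p = 0.0183). Eif4ebp1, an inhibitor of translation start that mTOR controls, stood at 23, 13.8 and 12.3 CPM in Sham and at 55.6, 91.7 and 43.9 CPM in MCAO (1.96 ± 0.34, adjusted p = 0.0397). Lgmn, a lysosomal protease, gave 1.71 ± 0.33, Prkag1, a regulatory subunit of AMP-activated kinase, 1.61 ± 0.31, and Rrp15, a factor of ribosome assembly, 1.25 ± 0.24, each at an adjusted p of 0.0476. Lsm2, a subunit of an RNA-binding ring (1.68 ± 0.31, adjusted p = 0.046), and Sgf29, a subunit of a histone acetylation complex (1.49 ± 0.27, adjusted p = 0.043), rose by similar amounts. Of the genes in this paragraph, Ercc1 alone passed with the length trend removed.

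Among the 20 genes that fell, Mob3b, of the MOB family of kinase activators, stood at 50.03, 45.5 and 39.4 CPM in Sham and at 8.51, 10.9 and 12.4 CPM in MCAO (-2.09 ± 0.27, adjusted p = 0.00705). Lrrn3, a leucine-rich repeat membrane protein, went from 159, 234 and 154 CPM to 32.6, 23.8 and 49.6 CPM (-2.37 ± 0.32, adjusted p = 0.00964). Lmntd1, which carries a lamin tail domain, went from 96.8, 128 and 123 CPM to 35.2, 21.4 and 35.8 CPM (-1.91 ± 0.28, adjusted p = 0.0143). For all 3 the groups were well apart. Cttnbp2, which binds cortactin, fell by 2.22 on the log2 scale (adjusted p = 0.0143) and Map4k2, a kinase upstream of JNK, by 1.34 (adjusted p = 0.046). Slc36a1, a proton-coupled amino acid transporter of lysosomes, fell by 1.69 (adjusted p = 0.0346). Adamts5, a protease that cuts large proteoglycans, stood at 3.44, 7.88 and 4.69 CPM in Sham and at 0.0492, 0.234 and 0.202 CPM in MCAO (-5.02 ± 0.81, adjusted p = 0.0246). Crym, a thyroid hormone binding protein, had 212, 134 and 229 counts in Sham and 0, 0 and 6 in MCAO, and Enpp6, a choline phosphodiesterase of new oligodendrocytes, had 88, 70 and 155 against 2, 4 and 2. With the length trend removed Adamts5 (adjusted p = 0.059), Crym (0.059) and Enpp6 (0.065) did not pass, nor did Map4k2 and Slc36a1. Oligodendrocyte markers summed to 19.3, 29.9 and 44.1 CPM in Sham and to 34.0, 28.9 and 32.2 CPM in MCAO, with overlap. Oligodendrocyte precursor markers summed to 12.25, 7.02 and 7.58 CPM in Sham and to 17.3, 40.5 and 12.34 CPM in MCAO. The groups of that sum were only just apart, and of its 5 tested members 2 were above 0 and 3 below.

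The other genes that fell included several with long transcripts. Ptprd, a receptor tyrosine phosphatase of cell adhesion with a feature length of 22822 bases, stood at 15.8, 31.5 and 15.2 CPM in Sham and at 5.71, 5.22 and 6.36 CPM in MCAO (-1.85 ± 0.36, adjusted p = 0.0487). Etl4, with 16148 bases, gave -1.48 ± 0.28, and Fchsd2, an actin regulator of endocytosis with 16627 bases, gave -1.40 ± 0.27, each at an adjusted p of 0.0476. None of these 3 long genes passed with the length trend removed, with Ptprd at -0.97 (adjusted p = 0.16), Etl4 at -0.84 (adjusted p = 0.17) and Fchsd2 at -0.76 (adjusted p = 0.17). Slc38a11, a member of an amino acid transporter family, stood at 4.28, 11.7 and 4.95 CPM against 0.492, 0.421 and 0.555 CPM (-3.83 ± 0.63, adjusted p = 0.0267) and also passed with the length trend removed. Frmd5 (-2.32 ± 0.44), Rhpn2 (-1.64 ± 0.32) and Insyn2a (-1.45 ± 0.27) also fell, each at an adjusted p of 0.0476. Cc2d2a, a protein of the ciliary base, gave -2.62 ± 0.51 and Nrep -1.43 ± 0.28, each at an adjusted p of 0.0476. Frmd5, Rhpn2, Insyn2a, Cc2d2a and Nrep did not pass with the length trend removed. Ptprd, Fchsd2, Slc38a11, Cc2d2a and Nrep were chosen after their values were seen.

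Egr3, an immediate early transcription factor, fell from 31.0, 27.2 and 21.0 CPM to 7.95, 3.86 and 7.50 CPM (-2.04 ± 0.35, adjusted p = 0.0321). Immediate early genes are those transcribed within minutes of a stimulus. Of the 21 tested, Egr3 alone passed. Before adjustment 5 were higher and 7 lower, with Fosl1 (3.13), Nr4a3 (2.08 ± 0.47, adjusted p = 0.061) and Maff (1.44) at one end and Egr1 (-1.01), Jun (-1.07) and Nr4a2 (-1.18 ± 0.27, adjusted p = 0.061) at the other. The list median was -0.35, and -0.56 with the length trend removed. Per library it was -0.68 in MCAO 1, -0.73 in MCAO 2 and -0.05 in MCAO 3 relative to the Sham mean.

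No beta-catenin, Wnt receptor, lineage factor, junction or transporter gene passed the adjusted edgeR test. DESeq2 called 5 beta-catenin genes, 2 Wnt receptor genes and 3 lineage factors lower, with 1 lineage factor and 1 junction gene higher and 1 junction gene lower, and limma-voom called 0 in each list. Before adjustment 0 of 23 beta-catenin factors and targets were higher and 7 lower (median -0.42, and -0.36 with the length trend removed). Ctnnb1, beta-catenin itself, stood at 1078, 1568 and 1552 CPM in Sham and at 661, 492 and 898 CPM in MCAO, without overlap (-1.03 ± 0.30, adjusted p = 0.091). Tnfrsf19, known as Troy, gave -1.01 ± 0.29 (adjusted p = 0.088), Axin2 -0.57 ± 0.30 and Lef1 -0.42 ± 0.27. In the Wnt7 and Norrin receptor complex, 0 of 14 were higher and 3 lower, namely the receptors Fzd1 (-1.36 ± 0.40, adjusted p = 0.092) and Fzd6 (-0.77 ± 0.23, adjusted p = 0.093) and the coreceptor Reck (-0.70 ± 0.24, adjusted p = 0.13). That list's median of -0.12 was 0.10 with the length trend removed. Of 22 endothelial lineage transcription factors, 1 was higher and 7 lower (median -0.37, and -0.40 with the length trend removed). Sox18, a factor of vessel development, was the higher one (1.11 ± 0.32, adjusted p = 0.091), and Ets2 (-0.98 ± 0.29) and Bcl6b (-1.11 ± 0.35) were among the lower.

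Junction and transport genes lay on both sides of 0, with 6 of 20 junction genes and 11 of 27 nutrient transporters above it. Before adjustment 1 junction gene was higher and 3 lower, beside 13.3% and 9.53% of all genes tested. The MCAO libraries lay wholly above Sham for 2 junction genes and wholly below for 6, beside 14.8% and 15.2% of all genes. Cldn5, the main claudin of the barrier, stood at 1482, 526 and 1149 CPM in Sham and at 1484, 2511 and 1428 CPM in MCAO, with overlapping groups (0.78 ± 0.38, adjusted p = 0.25, and 0.18 with the length trend removed). Ocln (-0.21 ± 0.25), Cdh5 (-0.33 ± 0.23), Pecam1 (0.10 ± 0.28), Abcb1a (-0.19 ± 0.25) and the lipid transporter Mfsd2a (0.06 ± 0.24) did not pass. The test found 24.0% of simulated log2 changes of 1, over genes of widely different levels and without a length trend. The share for these genes alone was not measured, and changes of that size or less in them may have been missed. Of 27 nutrient transporters 3 were higher and 6 lower before adjustment, beside 13.3% and 9.53% of all genes tested (DESeq2 called 3 and 2). Among the lower was the taurine transporter Slc6a6 at 762, 573 and 1138 CPM against 1798, 1659 and 1820 (-1.09 ± 0.30, adjusted p = 0.082). The amino acid transporter subunit Slc3a2 (1.35 ± 0.28, adjusted p = 0.053) and Slc38a5 (1.25 ± 0.35, adjusted p = 0.085) lay on the other side. Plvap, a protein of leaky vessels, stayed at 3.64 CPM or less in MCAO and did not pass (adjusted p = 0.25). The junction median was -0.25 and the transporter median -0.16, and with the length trend removed they were -0.21 and -0.11.

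Among 31 genes of VEGF receptors and tip cells, 8 were higher and 7 lower before adjustment and 0 passed in edgeR (median -0.29, and -0.36 with the length trend removed), while DESeq2 called 5 higher and 4 lower. The receptor Kdr stood at 310, 478 and 502 CPM in Sham and at 151, 165 and 309 CPM in MCAO (-1.04 ± 0.33, adjusted p = 0.10), and the highest MCAO library lay just below the lowest Sham library. Angpt2, a ligand that loosens vessel walls, went from 6.58, 6.61 and 12.1 CPM to 20.8, 17.9 and 34.5 CPM (1.53 ± 0.36, adjusted p = 0.061), while its receptor Tek gave -0.82 ± 0.27 (adjusted p = 0.11). Flt1 (-0.26 ± 0.26), Apln (-0.15 ± 0.80) and Esm1 (-1.12 ± 1.19) did not pass. Mki67, a marker of cycling cells, was at 1.87 CPM or less in all 6 libraries. Of 27 cell cycle genes 3 were higher and 0 lower before adjustment, beside 13.3% and 9.53% of all genes tested. The targets of the deletions made elsewhere in the study, Hdac2 (-0.17 ± 0.26) and Ezh2 (-0.50 ± 0.40), did not differ beyond their spread between sham and occluded wild-type libraries.

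Matrix, coagulation and flow-responsive genes were mixed. Of 36 basement membrane and matrix genes 6 were higher and 5 lower before adjustment, and P4ha1 passed. Among all genes tested 13.3% were higher and 9.53% lower, for comparison with this list and those below. Tnc, a matrix glycoprotein of injured tissue, stood at 0.0984, 9.82 and 20.9 CPM in MCAO against at most 0.551 CPM in Sham (4.88 ± 1.24, adjusted p = 0.071), so that MCAO 1 lay within the Sham range. Timp1, an inhibitor of matrix proteases, had the same order, with 1.77, 5.54 and 13.3 CPM in MCAO (3.45 ± 1.16, adjusted p = 0.12), as did Cd44, a hyaluronan receptor, with 0.0492, 4.96 and 10.8 CPM (4.06 ± 1.30, adjusted p = 0.11). Those 3 genes and Spp1 were thus lowest in MCAO 1 and highest in MCAO 3. Of 18 coagulation and fibrinolysis genes 5 were higher and 0 lower, and Plaur passed. The protein C receptor Procr (1.40 ± 0.36, adjusted p = 0.071) and Anxa2, a cell surface partner of plasminogen activation (1.57 ± 0.33, adjusted p = 0.052), did not. Of 18 flow-responsive genes 1 was higher and 5 lower, 0 passed in edgeR and DESeq2 called 2, with Klf4, a factor induced by laminar flow, at -0.89 ± 0.27 (adjusted p = 0.096), Klf2 at -0.42 ± 0.25 and Nos3 at -0.25 ± 0.24. The BMP target Id3 stood at 2533, 3741 and 2082 CPM against 1459, 827 and 1029 CPM (1.33 ± 0.33, adjusted p = 0.066), and of the 29 genes of that list 3 were higher and 3 lower. After removal of the length trend the median was 0.23 for matrix, 0.53 for coagulation, -0.16 for flow-responsive and 0.17 for BMP and TGF-beta genes.

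**Figure D4:**
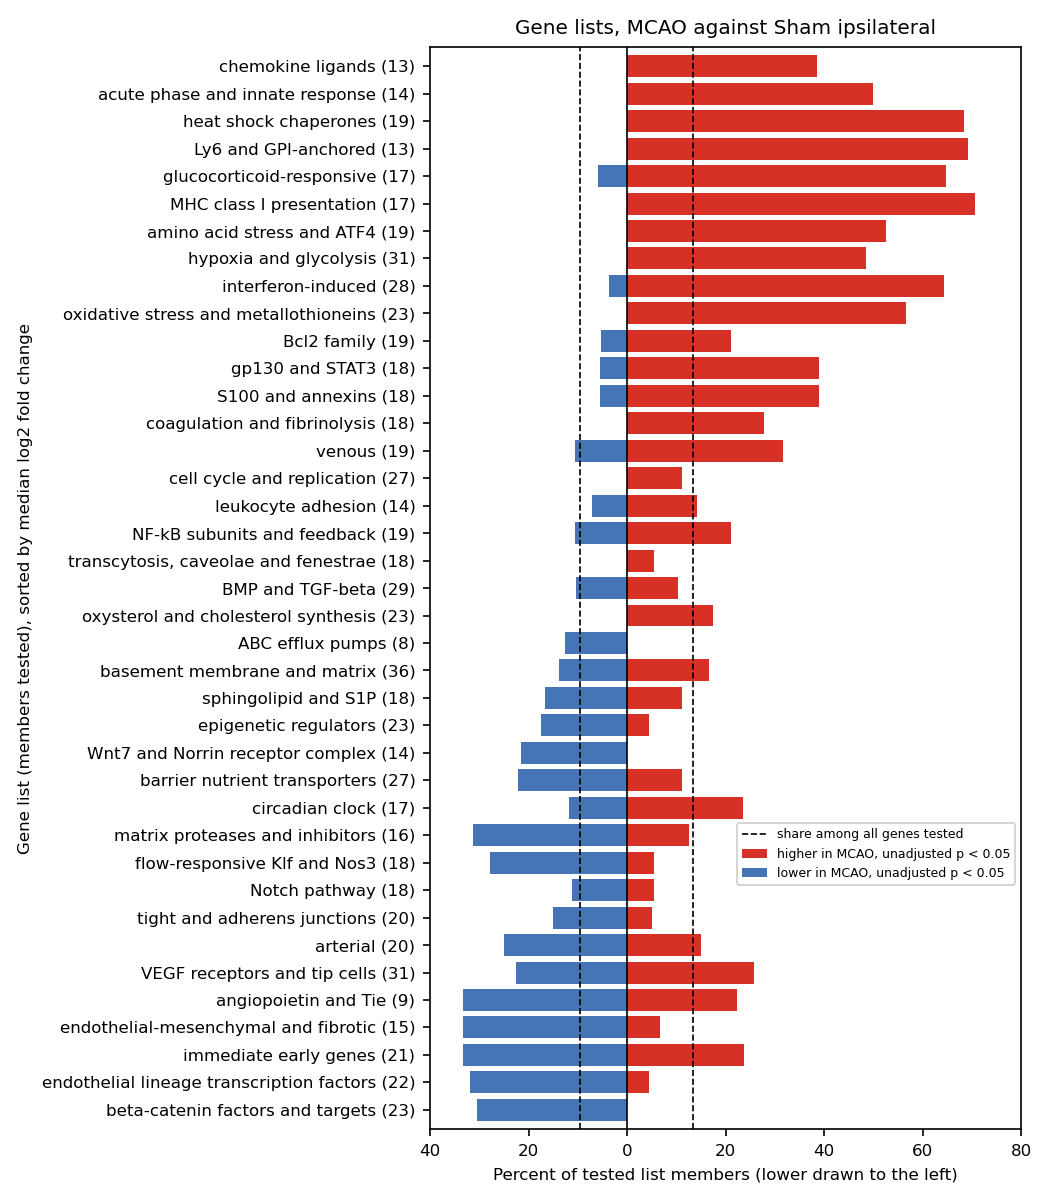
Percent of the tested members of each of 39 gene lists that were higher (red, right) or lower (blue, left) after occlusion at an unadjusted p-value under 0.05; dashed lines mark the shares among all 13870 genes, 13.3% higher and 9.53% lower. Lists are sorted by median log2 fold change, and counts within them include genes that sit in several lists.

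Contralateral values of most of the 74 genes had the same sign. In a fit of the 12 wild-type libraries, 52 of the 54 genes that rose also had a contralateral log2 fold change above 0, and 18 of the 20 that fell had one below 0. Over all 13870 genes, 64.3% of those above 0 on the ipsilateral side (49.4% of all) were also above 0 on the contralateral side, and 52.2% of those below 0 were also below. Of the 74 genes, 37 had a contralateral p-value under 0.05 before adjustment, against 6.72% of the 15505 genes tested in that fit. MCAO contralateral 1 stood apart, with olfactory and vomeronasal receptors at 1883 CPM against 173 and 152 CPM in the other two, and a correlation of level with GC content across genes of -0.34 against 0.31 in both. Alad, for one, was at 0.966 CPM there and at 108 and 117 CPM in the other two. Without that library 53 of 54 and 19 of 20 genes had the same sign, against 73.6% and 75.4% of all genes, and 58 of the 74 had an unadjusted p-value under 0.05, against 14.1% of all genes. Its part in the contralateral values was not otherwise tested. Sham ipsilateral 2, a library of the main comparison, had a similar correlation with GC content, of -0.31. The 2 sides used different Sham and MCAO libraries, which may come from the same mice. Lcn2 was 3.79 ± 0.46 on the contralateral side, close to its ipsilateral value, and Calr3 was 4.44 ± 0.91. Without MCAO contralateral 1 they were 3.78 ± 0.45 and 4.98 ± 0.56. The difference between the sides was tested for each gene, and Scgb3a1 alone passed (0.00645% of the genes), with 489 genes (3.15%) at an unadjusted p-value under 0.05. Its contralateral levels in this fit were 31.1, 39.9 and 39.5 CPM in Sham and 74.1, 126 and 107 CPM in MCAO (1.47 ± 0.30), and its ipsilateral effect exceeded that by 3.19 ± 0.43 (adjusted p = 0.0412). Without MCAO contralateral 1 the difference was 3.00 ± 0.40 (adjusted p = 0.0299). Among the fits that left out 1 library, Scgb3a1 passed only in that one and in the one without MCAO ipsilateral 2. In the fit of 12 libraries Apod had 0.25 ± 0.41 on the contralateral side and Adamts5 -0.79 ± 0.71. Their unadjusted p-values of the side difference were 0.0034 and 0.0013. Without MCAO contralateral 1 the contralateral values were 0.51 ± 0.39 and -0.82 ± 0.77, and those p-values 0.00531 and 0.00122. In the fit of 12 libraries 4 genes (0.0258%) passed on the ipsilateral side: Scgb3a1, Lcn2, Gng10 and Gm20503.

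**Figure D5:**
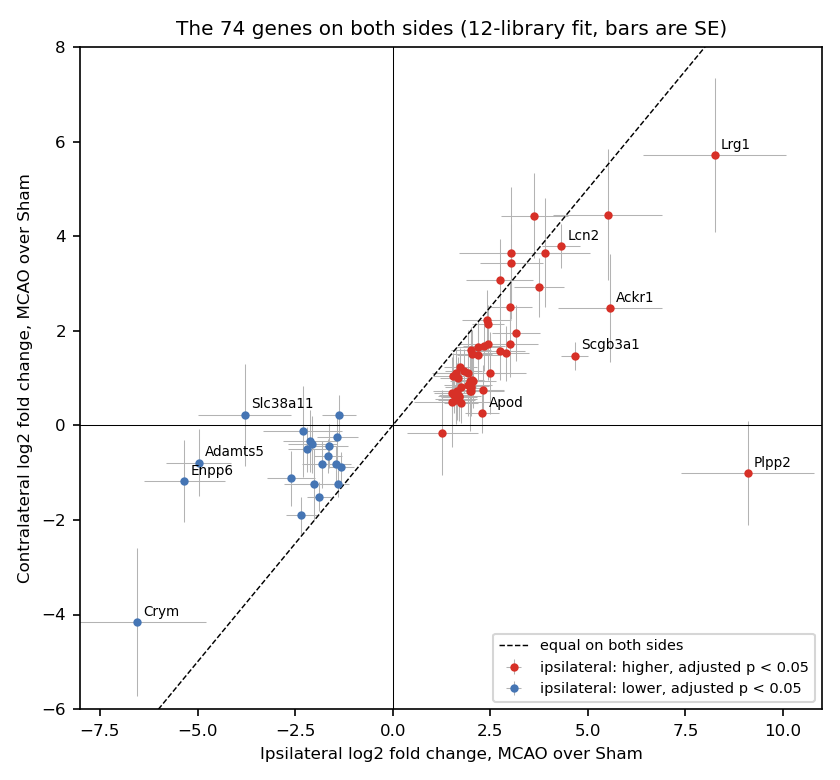
Log2 fold change (MCAO over Sham) of the 74 genes on the ipsilateral side (x) and the contralateral side (y), from a fit of 12 wild-type libraries; bars are SE and the dashed line marks equal values. On the y axis 52 of 54 red points lie above 0 and 18 of 20 blue points below 0. The genes were chosen for their ipsilateral difference.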

How the data were processed

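The authors deposited 1 table of read counts per gene for all 18 libraries, with the length in bases of each counted feature beside it. Per the submitters' processing notes, FastQC, cutadapt, STAR, featureCounts and DESeq2 were used with build mm10; roles, versions, strand setting and annotation are not given in the sources used here. The deposited table calls the counts normalized, but they were whole numbers of unequal totals, and from 81.7% to 88.4% of the counts between 1 and 20 in the 6 libraries were even, as when both mates of a pair are counted without scaling. They were used as unscaled counts. Columns were assigned to samples by title, and 0 columns were left without a sample. Coordinates are on GRCm38, checked against GENCODE M21, where 21442 of 21638 rows matched.

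Genes that reached 10 counts in 3 or more of the 6 libraries were tested with edgeR 4.0.16 (R 4.3.3), by the quasi-likelihood F-test with TMM scaling and Benjamini-Hochberg adjustment over all 13870 genes. The threshold for a call was an adjusted p of 0.05. The SE of a log2 fold change is its size divided by the root of the F statistic. CPM is a count divided by the TMM-scaled total and scaled to 1e6. Contralateral values and the difference between sides came from 1 fit of the 12 wild-type libraries. Alternatives were all 18 or 12 libraries, RLE or upper-quartile scaling, DESeq2 1.42.0, limma-voom (limma 3.58.1) with and without sample weights, other count filters, halved counts, removal of globins, of a GC trend or of a length trend, a replicate block, and leaving out each library. The length trend and the contralateral values without MCAO contralateral 1 were added after the data were seen. On counts simulated from these libraries for 13417 genes, 24.0% of genes changed by a log2 value of 1 and 80.0% of those changed by 2 were called, with 9 of 13217 unchanged genes.

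The text names the 12 higher and 12 lower genes with the smallest p-values among those with no overlap and a mean of at least 10 CPM in a group, up to 3 genes per list at an unadjusted p under 0.05, and a fixed set of endothelial genes. Predicted genes and pseudogenes were left out of the first rule. A few genes that the rules or lists hold are not reported here, and they are left out of the microglia marker sum and of the plot of leading genes. Other list members, marker genes and called genes were named after their values were seen. The members and lists were chosen with earlier results of these data known, and the text gives counts over lists as descriptions with no test. Sequences are from RefSeq promoters.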

Additional observations from a re-analysis of the deposited data

Results flagged for a closer look

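The effect of occlusion on Scgb3a1 passed the test of a difference between the sides of the brain, a call that depended on the setting. In the fit of 12 wild-type libraries the ipsilateral log2 fold change exceeded the contralateral one by 3.193 ± 0.4259 (SE, edgeR adjusted p = 0.0412 over 15505 genes). Ipsilateral levels in that fit were 23.9, 25.8 and 32.9 CPM in Sham and 757, 483 and 854 CPM in MCAO. Contralateral levels were 31.1, 39.9 and 39.5 CPM in Sham and 74.1, 126 and 107 CPM in MCAO, so MCAO was above Sham on both sides without overlap. The size of the difference ran from 2.996 to 3.435 in the fits that each left out 1 of the 12 libraries. Its adjusted p ran from 0.0182 to 0.305, and it passed only without MCAO ipsilateral 2 or without MCAO contralateral 1. In edgeR it did not pass with all 18 libraries (adjusted p = 0.94), the replicate block (0.12) or no count filter (0.0503). With RLE scaling and in DESeq2 it passed.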

How the results depend on the processing

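The number of genes called depended on the setting, and all 74 kept their direction wherever they were tested. Against 74 genes and 26 distinct list members called, all 18 libraries in 1 edgeR fit gave 0 and 0 (1210 genes at an unadjusted p under 0.05), the 12 wild-type libraries 4 and 1, DESeq2 1462 and 172, limma-voom 39 and 14, limma-voom with sample weights 1129 and 141, no count filter 918 and 134, a removed GC trend 326 and 64, and a removed length trend 24 and 5. Halved counts gave 124 genes. With the replicate block 14 genes (13 of them among the 74) and 5 list members passed, although same-numbered Sham and MCAO libraries did not deviate together (correlations from -0.121 to 0.021) and the numbers were not used as pairs. Leaving out 1 library gave from 8 to 838 genes and from 3 to 121 list members. The side difference was called for 1 gene, for 0 in edgeR with all 18 libraries, with no count filter or with the replicate block, for 7 by DESeq2, and for 0 to 1 without 1 library. Log2 values of the following genes, none called, changed sign. With limma-voom Selp was 0.039 and Apln 0.14, and with sample weights Hdac2 was 0.038, Mfsd2a -0.067, Apln 0.43 and Mki67 -0.47. With the GC trend removed Hdac2 was 0.052, Ocln 0.038 and Mfsd2a -0.19, and with the replicate block as well Hdac2 was 0.063, Ocln 0.024, Mfsd2a -0.17, Icam1 -0.012 and Apln 0.16. The block alone gave Apln 0.24. With the length trend removed Mfsd2a was -0.45, Flt1 0.33 and Col4a1 0.17. Leaving out 1 library gave Pecam1 from -0.13 to 0.24, Mfsd2a from -0.075 to 0.13, Selp from -1.13 to 0.51, Apln from -1.17 to 1.27 and Mki67 from -0.56 to 1.21. The causes were not tested. Replicates number 3 a group, so that changes of a log2 value of 1 were mostly missed on simulated counts.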
